A study of Mus musculus with 2 samples.

Results

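Immediate early genes are switched on within minutes of a stimulus, without new protein synthesis, when signals such as growth factors, stress or cell detachment reach kinases and the factors SRF, Elk and CREB that already sit in the cell. Proteins of the Fos family (Fos, Fosb, Fosl2) pair through a leucine zipper with proteins of the Jun family (Jun, Junb, Jund) to form AP-1, while Egr1 binds DNA through zinc fingers, Atf3 is a stress-induced partner of Jun proteins, and Ier2 and Ier3 are small proteins of the same early response. In skeletal muscle these genes are known for their rise in stem cells after injury, and enzymatic release of cells from tissue is known to raise them as well. The 10 genes described here, Fos, Fosb, Fosl2, Jun, Junb, Jund, Egr1, Atf3, Ier2 and Ier3, were chosen by symbol out of the 32285 genes of the deposited count table, and all 10 were found.

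The study sorted tdTomato-positive (tdT+) cells from trunks and limbs of E14 mouse embryos, freed with collagenase XI and dispase II, and sequenced 1 library titled SRSF2f/f/Myf5-Cre/tdT and 1 titled SRSF2f/w/Myf5-Cre/tdT with 10x Genomics 3′ chemistry. Both carry Cre recombinase under the promoter of Myf5, a gene of early muscle precursors, and the tdT reporter that Cre turns on from Rosa26. The first title stands for 2 floxed alleles of the splicing factor Srsf2 and the second, which served as the control, for 1 floxed and 1 wild-type allele. There was 1 library for each genotype, so no test between genotypes was possible, and the number of embryos behind each library is not given in the sources used here. The libraries hold 156093779 and 128116615 UMIs (unique molecular identifiers, each 1 captured RNA molecule), and 12523 and 10345 cells were kept.

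The titles were in doubt. Srsf2 stood at 219 UMIs per 1000000 UMIs of the same cells (CPM) in the library labelled SRSF2f/f and at 153 CPM in the library labelled SRSF2f/w, a log2 ratio of -0.52 (95% interval -0.54 to -0.49). Cells with markers of skeletal muscle made up 18.3% of the kept cells in the library labelled SRSF2f/f and 1.11% in the library labelled SRSF2f/w. Both values, as well as the headings of the study's quality plots and the names of the pipeline runs, go against the titles, while a colour key of another plot of the study goes with them. So does the number of cells, since the study kept fewer control than mutant cells and the library labelled SRSF2f/w has the fewer here. The libraries are therefore named by their titles throughout as "labelled", and no direction below is assigned to a genotype. Which exons the deletion removes is not given in the sources used here and reads lie at the 3′ end, so Srsf2 is a limited check, and 74 barcode sequences occur in both libraries.

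Cells were placed in 11 classes by fixed limits on marker UMIs, such as SKM-like for skeletal muscle markers (Pax7, Myf5, Myod1, Myog), Mesen-like for fibroblast and mesenchymal markers (Pdgfra, Dcn, Lum), Chon-like for cartilage (Acan, Matn1), Osteo-like for bone, Endo-like for vessels (Pecam1, Kdr), Peri-like for pericytes, Immu-like for blood immune cells, Ery-like for red cells, Neu-like for neurons, Sch-like for Schwann cells and Epi-like for epidermis. Of 23 further markers that the limits did not use, 22 were highest in their own class. The exception was the pericyte marker Cspg4, at 66.1 CPM in Peri-like and 236 CPM in Chon-like cells. In the libraries labelled SRSF2f/f and SRSF2f/w, Peri-like cells also held the Mesen-like list at 1659 and 1516 CPM, beside 795 and 1044 CPM of their own list. Neu-like cells held it at 925 and 781 CPM, beside 3243 and 3664 CPM of their own. A class name thus states the limits a cell met and not a pure cell type. Levels are CPM of all UMIs of the same cells, ratios are the log2 of the library labelled SRSF2f/w over the library labelled SRSF2f/f, and all intervals are exact 95% intervals that cover counting error only, not the spread between embryos.

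The genes span from 1240 bases (Ier3) to 47744 bases (Atf3) of the genome (GRCm38, GENCODE annotation). Fos (ENSMUSG00000021250) spans chr12:85473890-85477273 on the plus strand, Fosb (ENSMUSG00000003545) chr7:19302696-19310051 on the minus strand and Fosl2 (ENSMUSG00000029135) chr5:32135801-32157842 on the plus strand. Jun (ENSMUSG00000052684) is a gene of a single exon at chr4:95049034-95052222 on the minus strand, and Jund (ENSMUSG00000071076), likewise of a single exon, lies at chr8:70698949-70700616 on the plus strand. Junb (ENSMUSG00000052837) spans chr8:84974484-84978718 and Ier2 (ENSMUSG00000053560) chr8:84661331-84662852, both on the minus strand of the chromosome that also holds Jund. Atf3 (ENSMUSG00000026628) spans chr1:191170296-191218039 on the minus strand and Ier3 (ENSMUSG00000003541) chr17:35821684-35822923 on the plus strand. The antisense genes Junos and Gm11175 overlap Jun and Jund, and the 3′ end of Junb overlaps Prdx2 on the other strand (chr8:84974484-84974834). Whether the counting used strand is not given in the sources used here, so reads of these overlapping genes may not be fully apart.

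The letters just before the start sites of 4 AP-1 genes are shown because sites for CREB and ATF factors before the start are a known feature of early response genes. Each line gives 120 bases on the strand of the gene, 5′ to 3′, that end just before the first base annotated by RefSeq (GRCm38.p6) or, for Fosb, by GENCODE 6 bases earlier: Fos at chr12:85473770-85473889, Fosb at chr7:19310052-19310171, Jun at chr4:95052223-95052342 and Junb at chr8:84978749-84978868. Capitals mark TGACG (the core of a CREB or ATF site), TGACNTCA, CCAAT and TATAAA on either strand.
Fos: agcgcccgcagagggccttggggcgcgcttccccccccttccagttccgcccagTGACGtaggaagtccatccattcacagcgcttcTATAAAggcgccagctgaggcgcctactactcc
Fosb: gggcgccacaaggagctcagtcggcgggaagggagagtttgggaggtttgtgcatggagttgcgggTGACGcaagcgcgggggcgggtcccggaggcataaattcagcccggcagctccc
Jun: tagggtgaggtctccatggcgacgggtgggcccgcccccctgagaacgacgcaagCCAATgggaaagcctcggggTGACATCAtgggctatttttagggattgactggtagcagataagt
Junb: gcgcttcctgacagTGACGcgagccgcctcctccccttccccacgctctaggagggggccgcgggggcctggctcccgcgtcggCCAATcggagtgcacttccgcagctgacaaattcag

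Within 250 bases before the RefSeq start, TGACG occurred on either strand in 4 of 8 genes (Fos, Fosb, Junb, Atf3) and in 17.8% of 32851 promoter entries of all genes. The 8 do not include Egr1, which was left out of this count, or Ier2, so their sites are not described. TGACNTCA, of which the Jun site above is a case, occurred in 1 of 8 and in 7.49% of all entries. The full palindrome TGACGTCA (1.55% of all entries), the TGANTCA site of AP-1 (6.75%) and the CArG box of SRF (1.47%) occurred in none of the 8 within this window. For 3 of the genes the window does not lie before the GENCODE start given above. The Fosl2 window is exonic in GENCODE, the RefSeq start of Jund (chr8:70697739) lies before its GENCODE span, and that of Atf3 (chr1:191183333) lies inside its span. Absence from the window is thus not absence from every promoter of a gene. Sites more than 250 bases before the start were not searched. TGACG and TGACNTCA were added after the letters were seen, TGACGTCA also counts as TGACNTCA and as TGACG, and a match is a run of letters and not a measured binding site.

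Across all kept cells, each of the 10 genes was higher in the library labelled SRSF2f/w, by very different amounts, except that Fosl2 had a log2 ratio of -0.01 with cells thinned to 2000 UMIs. Ier3 stood at 200 CPM in the library labelled SRSF2f/f and 371 CPM in the library labelled SRSF2f/w (log2 ratio 0.89, interval 0.87 to 0.92), and Atf3 at 539 and 915 CPM (0.76, 0.75 to 0.78). Those 2 of 10 passed 1.5-fold upwards, beside 16.5% of the 17243 genes with at least 50 UMIs, and none passed it downwards, beside 6.55%. Junb followed at 395 and 588 CPM (0.58), then Fos at 1179 and 1622 CPM (0.46), Jun at 1603 and 2207 CPM (0.46), Ier2 at 485 and 635 CPM (0.39) and Jund at 1837 and 2331 CPM (0.34). Fosb, at 564 and 628 CPM (0.15), Fosl2, at 53.3 and 58.4 CPM (0.13), and Egr1, at 886 and 916 CPM (0.05, 0.04 to 0.06), were nearly level. The median ratio of the 10 genes was 0.42, beside 0.04 over all genes counted.

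The libraries hold the cell classes in different shares, and this bears on these sums. SKM-like cells, which lay at the low end for most of the 10 genes, made up 18.3% of one library and 1.11% of the other. When every class was given the same weight, the ratio was 0.41 for Ier3, 0.28 for Atf3 and -0.25 for Fosl2, none of the 10 passed 1.5-fold, and Jun had 0.38 and Fos 0.35.

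**Figure D1:**
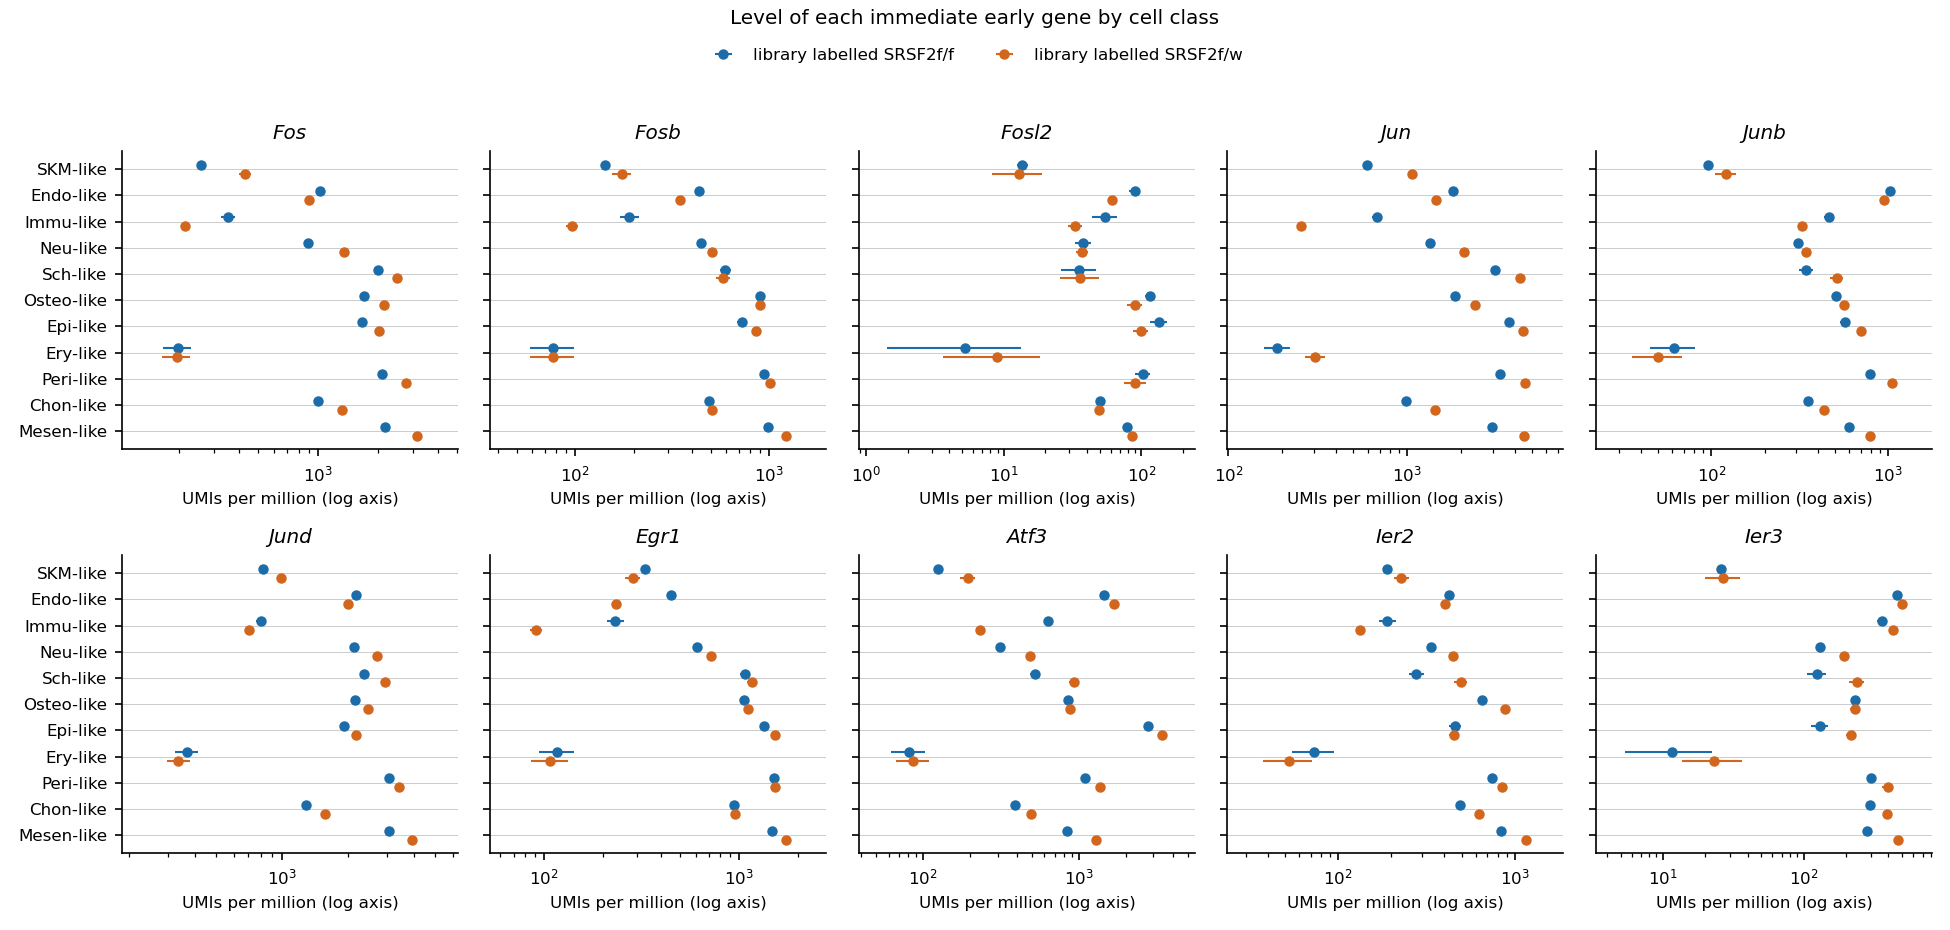
Level of each gene in the 11 cell classes, in CPM on a log axis, a panel per gene; points are the 2 libraries, bars the exact 95% counting intervals (where none is seen it is narrower than the point). SKM-like and Ery-like cells lie at the low end of most panels, with haemoglobin counted in the total of Ery-like cells. Mesen-like cells lie at or near the high end for Fos, Fosb, Jund, Egr1 and Ier2, and Atf3 is highest in Epi-like cells (2780 and 3399 CPM).

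The cell class set the level more than the library did. For Fos, the partner that cannot pair with itself, Mesen-like cells were highest in both libraries, at 2172 CPM in the library labelled SRSF2f/f and 3130 CPM in the library labelled SRSF2f/w. Apart from Ery-like cells, SKM-like cells (260 CPM) were last in the library labelled SRSF2f/f and Immu-like cells (216 CPM) in the library labelled SRSF2f/w. Ery-like cells had 197 and 196 CPM, but haemoglobin made up 719613 and 850087 CPM of their UMIs, and per 1000000 other UMIs Fos stood at 704 and 1305. Peri-like cells came second for Fos, at 2105 and 2759 CPM, and their counting interval overlapped that of Mesen-like cells in the library labelled SRSF2f/f but not in the library labelled SRSF2f/w. Fosb, the long form of which is a strong activator, had the same order at the top, with 994 and 1222 CPM in Mesen-like cells. Fosl2, which encodes Fra-2, known for roles in bone and epidermis, was highest in Epi-like cells at 134 and 99.2 CPM, ahead of Osteo-like cells (115 CPM) in the library labelled SRSF2f/f and Peri-like cells (90.3 CPM) in the library labelled SRSF2f/w, with overlapping intervals in both.

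The Jun family divided. Jun was highest in Epi-like cells (3695 CPM) in the library labelled SRSF2f/f and in Peri-like cells (4552 CPM) in the library labelled SRSF2f/w, where Mesen-like cells at 4502 CPM could not be told from them by counting error. Junb, which can restrain Jun, was highest in Endo-like cells (1027 CPM) in the library labelled SRSF2f/f and in Peri-like cells (1052 CPM) in the library labelled SRSF2f/w. Jund, the member known for steady expression in resting cells, had the narrowest range: from its highest class to the second lowest it spanned 3.82-fold and 5.54-fold in the libraries labelled SRSF2f/f and SRSF2f/w.

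From the highest to the second lowest class Atf3 spanned 22.5-fold and 17.6-fold, the widest range among the transcription factors by this measure. Atf3 had 2780 and 3399 CPM in Epi-like cells, 1445 and 1686 CPM in Endo-like cells, and 124 and 193 CPM in SKM-like cells. Without Ery-like cells, Egr1 and Jun spanned more in the library labelled SRSF2f/w, 19.0-fold and 18.0-fold, with Immu-like cells as their lowest class. Egr1 (ENSMUSG00000038418) was highest in Peri-like cells (1520 CPM) in the library labelled SRSF2f/f and in Mesen-like cells (1735 CPM) in the library labelled SRSF2f/w. In Endo-like cells, where Atf3 and Junb were high against other classes, Egr1 was low, at 450 and 235 CPM. Ier2 was highest in Mesen-like cells (831 and 1166 CPM), whereas Ier3, a target of NF-kappaB with a role in cell survival, was highest in Endo-like cells (457 and 498 CPM). The highest class was the same in both libraries for 7 of 10 genes, all but Jun, Junb and Egr1, and for 4 of 10 with cells thinned to 2000 UMIs. The share of all genes with the same highest class is not given here, so these counts are descriptions only.

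No cell type in these libraries is known to lack the genes, so the background from free RNA is not known. Whether Ery-like cells can serve as a low reference was not settled. With haemoglobin left out of the total, they were the lowest class for 0 of the 10 genes in either library. Their rank from the lowest of the 11 classes was then 2 to 4 in the library labelled SRSF2f/f and 2 to 6 in the library labelled SRSF2f/w. The UMIs then left can themselves include free RNA, so this rank does not decide it. The Mesen-like marker list stood at 303 and 136 CPM of all UMIs in Ery-like cells. After thinning to 2000 UMIs, Fos was found in 81.0% and 85.4% of Mesen-like cells. In Ery-like cells, whose UMIs are mostly haemoglobin, it was found in 11.1% and 9.38%.

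**Figure D2:**
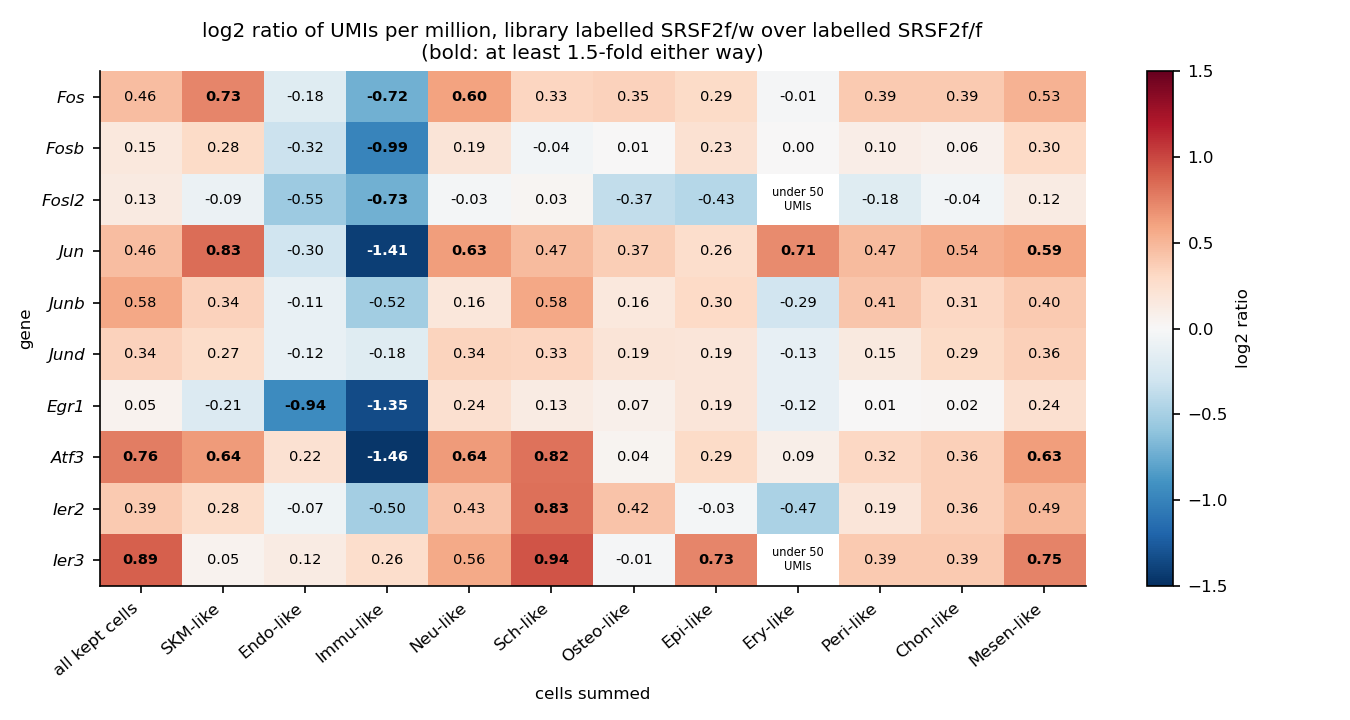
Log2 ratio of CPM, library labelled SRSF2f/w over library labelled SRSF2f/f, for each gene (vertical axis) in all kept cells and in each class (horizontal axis); colour runs from blue (lower) to red (higher). Most classes are pale red, the Immu-like column is blue except for Ier3 (0.26), and Egr1 in Endo-like cells stands at -0.94.

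In SKM-like cells, the cells the study set out to follow (2290 and 115 cells), the genes split. Jun stood at 597 CPM in the library labelled SRSF2f/f and 1063 CPM in the library labelled SRSF2f/w (log2 ratio 0.83, interval 0.77 to 0.90), Fos at 260 and 431 CPM (0.73, 0.62 to 0.83) and Atf3 at 124 and 193 CPM (0.64, 0.48 to 0.79). These 3 passed 1.5-fold upwards, beside 4.97% of the 11525 genes counted there. With a mitochondrial limit of 5% Fos (0.55) no longer passed, and with cells thinned to 2000 UMIs Ier2 (0.62) and Fosl2 (0.66) passed as well. Egr1 went the other way, at 330 and 285 CPM (-0.21, -0.34 to -0.09), while 16.2% of genes passed 1.5-fold downwards and no member did. Fosb (0.28), Junb (0.34), Jund (0.27) and Ier2 (0.28) lay between, with intervals above 0, though the Fosb ratio ran down to -7.22e-05 among the alternatives. Fosl2 (480 and 24 UMIs) and Ier3 (908 and 50 UMIs) were rare and had no direction over these cells as a whole, with intervals of -0.74 to 0.50 and -0.39 to 0.46. The summed markers of the other classes in these cells were at 204 and 115 CPM for the Mesen-like list and at 72.5 and 74.7 CPM for the Chon-like list. The other lists were at 29.5 CPM or lower, and their part in the result was not tested.

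The difference of Fos, Jun and Atf3 was found both in progenitors and in differentiating cells. Among cells with Pax7 and no Myog UMI (826 and 36 cells), Jun stood at 693 and 1206 CPM (0.80), Fos at 281 and 512 CPM (0.86) and Atf3 at 133 and 250 CPM (0.91). Among cells with at least 5 UMIs of Myog, a factor of muscle differentiation (886 and 51 cells), Jun stood at 412 and 867 CPM (1.07), Fos at 210 and 360 CPM (0.78) and Atf3 at 103 and 158 CPM (0.62). Egr1 again differed, with 324 and 294 CPM in Pax7 cells (-0.14, -0.37 to 0.09) and 318 and 272 CPM in Myog cells (-0.22, -0.43 to -0.03). Junb and Ier3 had opposite signs in Pax7 and Myog cells. Junb had 0.68 (0.36 to 0.97) and -0.38 (-0.82 to 0.04). Ier3 had 1.09 (0.52 to 1.61) and -1.86 (-3.50 to -0.62), the latter on 294 and 5 UMIs. In the same order Jund had 0.31 and 0.24, Ier2 0.31 and -0.04, Fosb 0.12 and 0.44, and Fosl2 0.01 and 0.15.

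The 2 muscle states also differed from each other within a library. Ier2 stood at 234 CPM in Pax7 cells and 124 CPM in Myog cells of the library labelled SRSF2f/f (log2 ratio -0.92) and at 290 and 121 CPM in the library labelled SRSF2f/w (-1.26, -1.64 to -0.90). The ratio of Myog over Pax7 cells in the libraries labelled SRSF2f/f and SRSF2f/w was -0.75 and -0.48 for Jun, -0.42 and -0.51 for Fos, and -0.31 and -0.38 for Jund. Egr1 had intervals that held 0, at -0.03 (-0.09 to 0.04) and -0.11 (-0.41 to 0.18). Atf3 had -0.37 and -0.66 and Junb -0.50 and -1.55, with intervals below 0 in both libraries. Fosl2 and Ier3 rest on few UMIs in the library labelled SRSF2f/w, for example 32 and 5 UMIs of Ier3.

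Mesen-like cells (3158 and 1623 cells) were the largest class of both libraries together and had all 10 genes higher in the library labelled SRSF2f/w. Ier3 stood at 281 and 471 CPM (0.75, 0.71 to 0.79), Atf3 at 837 and 1295 CPM (0.63, 0.60 to 0.65) and Jun at 2986 and 4502 CPM (0.59, 0.58 to 0.61). Those 3 of 10 passed 1.5-fold, beside 4.02% of 13153 genes, and Fos (0.53) and Ier2 (0.49) came close to it. Fosl2, at 78.9 and 85.9 CPM (0.12, 0.03 to 0.21), had the smallest ratio, Egr1 (0.24) the next. The study divided its mesenchymal cells into subclusters whose shares differed between its samples. Mesen-like cells were not divided here, and the part of such a mixture in their ratios, spread and correlations was not tested. In Chon-like cells Jun led, at 982 and 1432 CPM (0.54), ahead of Fos and Ier3 (both 0.39), with Egr1 at 942 and 956 CPM (0.02, -0.01 to 0.05). None of the 10 passed 1.5-fold there, beside 6.71% of genes either way.

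The smaller classes varied. In Neu-like cells 3 of 10 passed 1.5-fold upwards (2.6% of genes): Fos at 895 and 1355 CPM (0.60), Jun at 1342 and 2071 CPM (0.63) and Atf3 at 309 and 483 CPM (0.64). They stayed past it in 3, 4 and 6 of 8 alternatives, down to 0.49, 0.54 and 0.50. In Sch-like cells (153 and 119 cells) the 3 that passed (3.55% of genes) were Atf3 at 524 and 923 CPM (0.82), Ier2 at 277 and 493 CPM (0.83) and Ier3 at 123 and 238 CPM (0.94). Atf3 stayed past it in 5 of 8 alternatives (0.48 to 1.04) and Ier2 in 7 of 8. Ier3 alone passed in Epi-like cells (5.46% of genes), at 130 and 216 CPM (0.73, 0.50 to 0.97, past it in 6 of 8 alternatives), and Jun alone among the 8 genes with enough UMIs in Ery-like cells (1.43% of genes), on 144 and 239 UMIs (0.71). In these cells, mostly haemoglobin RNA, the median over all genes was -0.96, the Fos ratio was 0.89 and the Jun ratio 1.61 without haemoglobin in the total, and the ratios of Fos, Junb, Jund, Egr1 and Ier2 changed sign among the alternatives. None passed in Osteo-like cells (10.5% of genes either way) or Peri-like cells (10.9%). Fosl2 was the one gene lower in Osteo-like cells (-0.37, -0.58 to -0.16) and Epi-like cells (-0.43, -0.70 to -0.16) with an interval below 0.

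Endo-like cells (376 and 895 cells) ran against the other large classes. Atf3 (0.22) and Ier3 (0.12) were above 0, Ier2 (-0.07) reached 0.08 in an alternative, and Egr1 stood at 450 CPM in the library labelled SRSF2f/f and 235 CPM in the library labelled SRSF2f/w (-0.94, -1.01 to -0.86). It was the 1 of 10 genes past 1.5-fold downwards, beside 6.34% of genes, and Fosl2 (-0.55) passed too in some alternatives (down to -0.63). Cells with at least 2 UMIs of the lymphatic genes Lyve1, Prox1 and Reln made up 48.7% of Endo-like cells in the library labelled SRSF2f/f and 60.8% in the library labelled SRSF2f/w. The Egr1 ratio was -0.84 among these and -0.91 among the rest, so it was nearly as large within each. In Endo-like cells the Mesen-like marker list stood at 249 and 123 CPM in the libraries labelled SRSF2f/f and SRSF2f/w. Its part in the ratios was not tested. Levels differed between the 2 kinds of vessel cells: in the library labelled SRSF2f/f, Fosl2 stood at 46.4 CPM in lymphatic cells and 133 CPM in the rest, Ier3 at 291 and 626 CPM and Ier2 at 280 and 567 CPM.

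Immu-like cells (115 and 558 cells) showed the widest differences, in the opposite direction. Atf3 stood at 631 CPM in the library labelled SRSF2f/f and 230 CPM in the library labelled SRSF2f/w (-1.46, -1.57 to -1.35), Jun at 673 and 254 CPM (-1.41, -1.51 to -1.30) and Egr1 at 233 and 91.6 CPM (-1.35, -1.52 to -1.17). With Fosb (-0.99), Fosl2 (-0.73) and Fos (-0.72), 6 of 10 passed 1.5-fold downwards, beside 20.1% of 9130 genes, though Fos stayed past it in 5 of 8 alternatives (up to -0.20) and Fosl2 in 5 of 7. Ier3 at 360 and 432 CPM was the only one above 0, apart from Jund (-0.18), which reached 0.06 in an alternative. The median over all genes there was -0.17. The Mesen-like marker list stood at 283 CPM in Immu-like cells of the library labelled SRSF2f/f and 64.7 CPM in those of the library labelled SRSF2f/w. Its part in these ratios was not tested. The class is a mixture. Cells with at least 2 UMIs of the mast-cell genes Cma1, Cpa3, Mcpt4 and Tpsb2 were 30.4% of it in the library labelled SRSF2f/f (35 cells) and 53.8% in the library labelled SRSF2f/w (300 cells).

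Mast-type cells were set apart by these genes in each library. Atf3 stood at 41.2 CPM in mast-type cells and 1141 CPM in the other Immu-like cells of the library labelled SRSF2f/f, and at 49.9 and 537 CPM in the library labelled SRSF2f/w. Ier3 had the reverse pattern, at 497 CPM in mast-type and 241 CPM in other cells of the library labelled SRSF2f/f and at 607 and 133 CPM in the library labelled SRSF2f/w. Without the mast-type cells, Ier3 turned to 241 CPM in the library labelled SRSF2f/f and 133 CPM in the library labelled SRSF2f/w (-0.86, -1.09 to -0.61). Atf3 (-1.09), Jun (-1.51) and Egr1 (-1.42) stayed lower there. Within mast-type cells Atf3 had a ratio of 0.28 (-0.25 to 0.84) on 33 and 265 UMIs and Ier3 of 0.29 (0.14 to 0.44). Jund was likewise higher there (0.28, 0.13 to 0.42). Jun (-0.61, -0.81 to -0.40), Egr1 (-0.61, -0.95 to -0.25) and Fosl2 (-0.69, -1.18 to -0.16) were lower there too. The intervals of Fos, Fosb, Junb and Ier2 held 0.

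**Figure D3:**
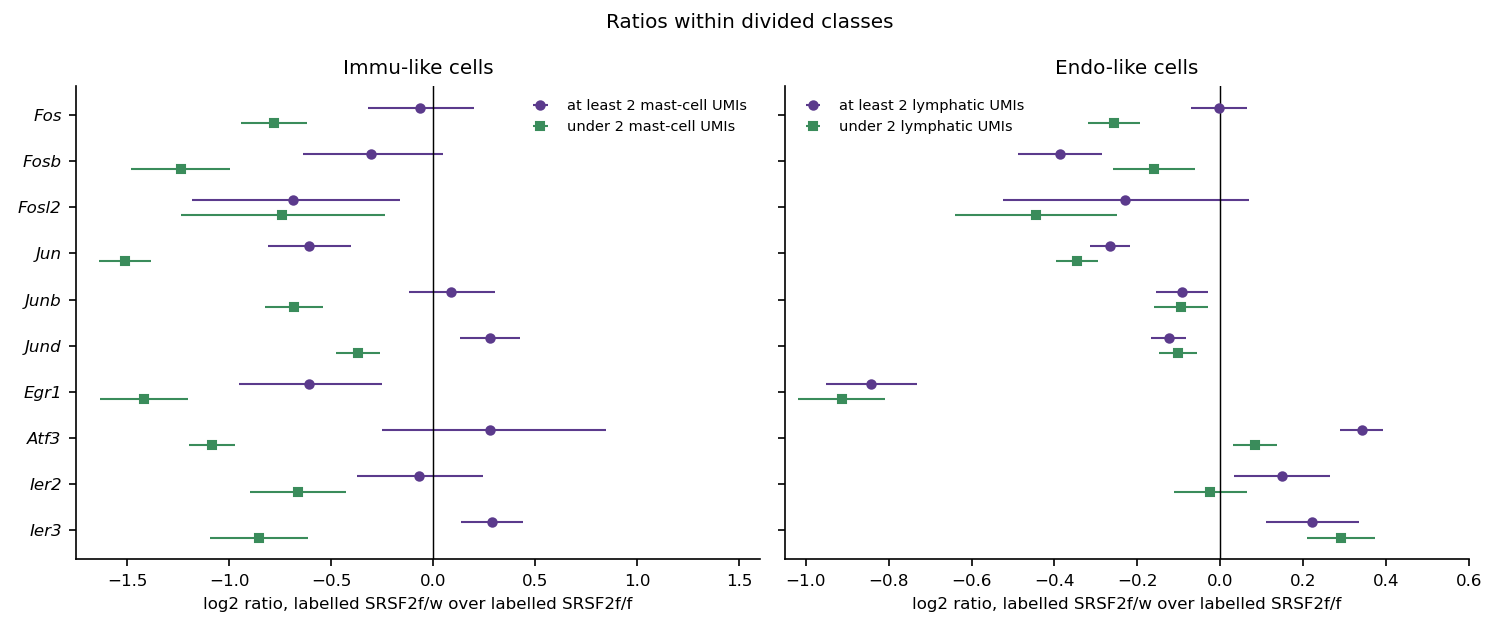
Log2 ratio of each gene, library labelled SRSF2f/w over library labelled SRSF2f/f (horizontal axis, bars are exact 95% counting intervals), in Immu-like cells divided by mast-cell UMIs and in Endo-like cells divided by lymphatic UMIs. Ratios of immune cells with under 2 mast-cell UMIs are all below 0, and Egr1 in Endo-like cells is near -0.9 in both divisions.

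The spread from cell to cell was described after each cell had been thinned to 2000 UMIs. In Mesen-like cells a mean of 4.46 Fos UMIs was found per cell in the library labelled SRSF2f/f, but 19.0% of cells had none, the median was 3 and the 10% of cells with the most held 33.7% of all Fos UMIs. In the library labelled SRSF2f/w the mean was 6.16, 14.6% had none and the top 10% held 32.3%. The variance over the mean, which is 1 for pure counting, was 5.01 and 6.22 for Fos and 5.70 and 6.75 for Jun. Jun ranked 6 of 4962 genes and Fos 9 in the library labelled SRSF2f/f, and 7 and 8 of 4782 genes in the library labelled SRSF2f/w. Genes were set in 10 equal bins by their mean, and 7 of the 10 early genes had a larger value than 90% of their bin in both libraries, with Junb as an eighth in the library labelled SRSF2f/w (91.6%).

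Atf3 (2.84 and 4.02), Jund (3.19 and 4.10), Egr1 (2.84 and 3.08), Ier2 (2.18 and 2.83) and Ier3 (1.93 and 2.60) were also among those 7, beside a median of 1.21 and 1.27 for the bin of the highest means. Only Ier3 in the library labelled SRSF2f/f lay in the next bin, with a median of 1.06. Against genes within 2-fold of its own mean, Egr1 was above 87.4% of them in the library labelled SRSF2f/w and Junb above 91.5% and 93.2% in the 2 libraries. By that measure 7 of 10 genes were above 90% in both libraries, and 6 in another random draw of the thinning, with Jund (90.8% and 90.9%) and Ier2 (91.7% and 90.8%) near the limit. Junb had 1.84 and 2.55 and Fosb 1.89 and 2.05. Fosl2, at 1.12 and 1.11, was near pure counting, at a mean of 0.15 UMIs per cell. In SKM-like cells, too, Jun (3.28 and 4.88) and Fos (2.83 and 2.40) had the highest values of the 10 genes, with no Jun UMI in 50.6% and 32.2% of cells.

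**Figure D4:**
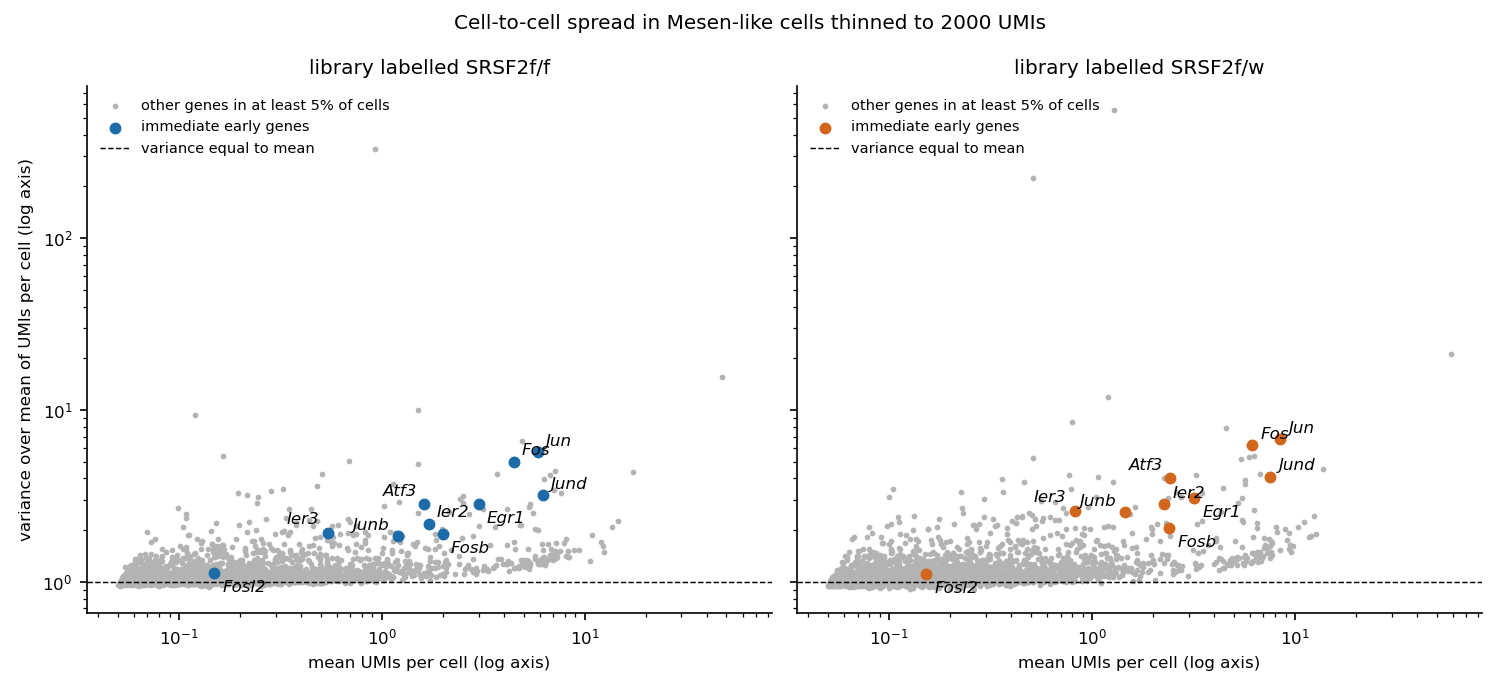
Variance over mean of UMIs per cell (vertical, log axis) against the mean (horizontal, log axis) for genes found in at least 5% of Mesen-like cells thinned to 2000 UMIs, one panel per library; coloured points are the immediate early genes. Jun (5.70 and 6.75) and Fos (5.01 and 6.22) lie far above the band of genes of like level, and Fosl2 (1.12 and 1.11) lies within it.

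Cells with a high count of one of the genes tended to have high counts of others. Over Mesen-like cells (3157 and 1617 with at least 2000 UMIs, values thinned and logged), all 45 pairs had a Pearson correlation above 0 in both libraries, with a median of 0.217 and 0.333. Pairs above 0 numbered 45 and 38 of 45 in SKM-like cells (median 0.161 and 0.168), 44 and 43 in Chon-like cells, and 45 and 44 in Endo-like cells. The share above 0 among pairs of other genes was not computed. Cells of a library share its dissociation, so the values are descriptions. In Mesen-like cells the highest pair was Fos with Jun, at 0.54 and 0.61, then Fos with Egr1 at 0.52 and 0.54 and Jun with Jund at 0.49 and 0.56. Egr1 thus varied with Fos within cells although its ratio between libraries was smaller. All 9 pairs with Fosl2 were at 0.10 or lower in both libraries, too weak in so rare a gene to read, and Junb with Jun reached 0.20 and 0.34.

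The mean number of the 10 genes found in a cell at 2000 UMIs follows their levels and does not measure whether they occur together. SKM-like cells had a mean of 2.64 in the library labelled SRSF2f/f and 3.34 in the library labelled SRSF2f/w, Mesen-like cells 6.54 and 6.85, Chon-like cells 5.13 and 5.49, and Peri-like cells 6.81 and 6.70. At least 8 genes were found in 34.2% and 44.5% of Mesen-like cells and in 1.23% and 2.61% of SKM-like cells. If each gene were found independently of the others, these shares would be 23.1% and 31.3% in Mesen-like cells and 0.01% and 0.09% in SKM-like cells.

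**Figure D5:**
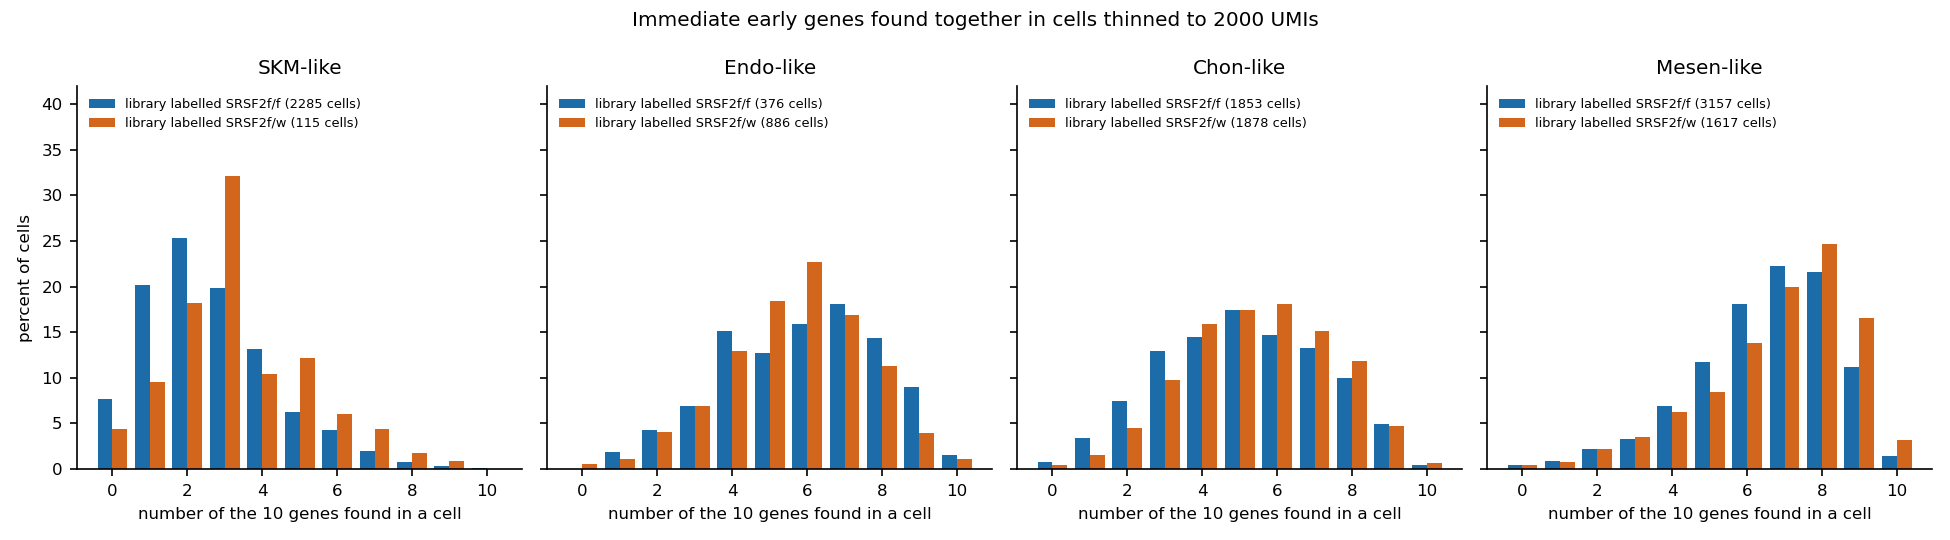
Share of cells (vertical, percent) by the number of the 10 genes found after thinning to 2000 UMIs (horizontal), for 4 classes and both libraries. The most frequent number was 2 and 3 in SKM-like cells and 7 and 8 in Mesen-like cells of the libraries labelled SRSF2f/f and SRSF2f/w.

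Outside the 10, the genes whose values over Mesen-like cells were most like theirs, by the lower of the mean correlations of both libraries over 4593 genes, were Klf2 (0.248 and 0.290), Klf6 (0.246 and 0.318), Btg2 (0.219 and 0.300), Klf4 (0.200 and 0.238), Rhob (0.187 and 0.211), Dusp1, Ccn1, Ccnl1, Nr4a1 and Zfp36. Their ratios between libraries in these cells ran from -0.17 for Ccn1 (340 and 301 CPM) to 0.56 for Dusp1 (180 and 267 CPM). None reached 1.5-fold, and Klf2 (1844 and 1739 CPM) and Nr4a1 (263 and 249 CPM) were slightly lower in the library labelled SRSF2f/w.

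Levels also moved with the mitochondrial share of a cell. In Mesen-like cells of the library labelled SRSF2f/w, the 541 cells with the highest share (median 4.17%) had less Ier3 than the 541 with the lowest (2.43%), 310 against 597 CPM (-0.94), less Atf3 (885 against 1609 CPM, -0.86) and less Jun (3623 against 5102 CPM, -0.49). In the library labelled SRSF2f/f the same ratio, over 1053 cells at each end, was -0.53 for Ier3, -0.50 for Atf3, -0.08 for Jun and 0.02 for Fos. Median mitochondrial shares were 3.42% and 3.13% in Mesen-like cells of the libraries labelled SRSF2f/f and SRSF2f/w. Between the cells with the most and the fewest UMIs the ratio was 0.21 and 0.89 for Ier3, -0.16 and 0.03 for Fos. The part of these measures in the difference between libraries was not tested.

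Related genes were counted in lists of the same pathway. Among AP-1 partners and related factors, 2 of 10 passed 1.5-fold upwards in all kept cells, Maff at 72.9 and 128 CPM (0.81) and Fosl1, which encodes Fra-1, at 21.2 and 34.7 CPM (0.71), and none downwards, beside 16.5% and 6.55% of all genes. Of 11 Egr, NR4A, KLF and Myc genes, Egr4 alone passed, on 5.79 and 12.8 CPM (1.15). Of 19 other early genes 6 passed, led by Sgk1 at 136 and 288 CPM (1.08) and Nfkbia, the NF-kappaB inhibitor, at 169 and 308 CPM (0.86). Of 6 feedback genes, which shut the response off, 2 passed, the MAP kinase phosphatases Dusp4 at 12.6 and 21.4 CPM (0.76) and Dusp1 at 144 and 243 CPM (0.75). None of 12 upstream factors and kinases did, with Elk3 at 46.9 and 57.7 CPM (0.30) the largest in size. List medians ran from 0.06 (upstream) to 0.52 (feedback), beside 0.04 over all genes. These values are over all kept cells, in which the class shares differ between libraries. In Mesen-like and SKM-like cells, Nfkbia had 0.28 and 0.37, Maff 0.51 and 0.46, Dusp1 0.56 and 0.41, and Sgk1 0.71 and 0.35. In Mesen-like cells Egr4 had 1.58, Fosl1 0.79 and Dusp4 0.72.

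In SKM-like cells these lists did not move as one. The Egr, NR4A, KLF and Myc list had 4 of 10 counted genes past 1.5-fold downwards and none upwards (median -0.20, beside -0.08 over all genes; 16.2% of all genes passed downwards and 4.97% upwards), among them Nr4a3 at 8.17 and 2.67 CPM (-1.61) and Klf10 at 42.3 and 23.0 CPM (-0.88). The other early genes had 3 of 19 upwards, Socs3, a brake on cytokine signals, at 12.1 and 25.1 CPM (1.05), Gadd45g at 98.9 and 162 CPM (0.71) and Ccn2 at 6.02 and 9.07 CPM (0.59, -0.21 to 1.31). The AP-1 list had 2 of 9 downwards, Fosl1 on 105 and 3 UMIs and Jdp2 at 18.7 and 12.3 CPM (-0.61).

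Heat shock genes, which respond to stress through another factor, moved beside the members in these cells. Hspa1a stood at 36.1 CPM in SKM-like cells of the library labelled SRSF2f/f and 209 CPM in the library labelled SRSF2f/w (2.53, 2.36 to 2.70), Hspa1b at 21.9 and 85.4 CPM (1.96) and Hspb1 at 305 and 912 CPM (1.58), the 3 of 7 past 1.5-fold upwards (4.97% of all genes). In Mesen-like cells Hspa1a stood at 122 and 170 CPM (0.48) and Hspb1 at 229 and 426 CPM (0.90). In Immu-like cells 5 of 7 heat shock genes were past 1.5-fold downwards (20.1% of all genes). The heat shock genes and the members did not move together in every class. In Endo-like cells the median ratio was 0.87 for the heat shock genes and -0.15 for the members. In Peri-like cells it was 1.06 and 0.25. The study describes the same dissociation protocol for both libraries, but whether they were handled in the same run is not given in the sources used here. With 1 library for each genotype, dissociation and genotype cannot be told apart in the difference between libraries. The part of dissociation in the levels was not tested.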

How the data were processed

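Droplet libraries (10x Genomics 3′ v3.1) of tdT+ cells from E14 trunks and limbs, 1 for each genotype, were taken from the deposited matrix of 32285 genes by 27766 barcodes. Its values are UMI counts per gene and cell that the authors made with Cell Ranger and aggregated. The matrix header names version 5.0.0, and the submitters' processing notes name Cell Ranger 3.1.0, STAR, Seurat 3.1.1 and mm10. Barcodes were assigned to libraries by suffix, through the number of cells given in each library's summary (15268 and 12498). Saturation was 39.5% and 45.9%, and the median was 9219 and 8105.5 UMIs per cell in the libraries labelled SRSF2f/f and SRSF2f/w.

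Cells within 2 SD of the library mean of log10 UMIs and log10 genes and with up to 10% mitochondrial UMIs were kept. A class needed 3 UMIs over 2 of its marker genes (Chon-like and Mesen-like 6 over 3), and Mesen-like cells had to meet the limits of no other class. Cells that met several limits (863 and 974) were left out of the classes, which also removes some doublets, and no doublet caller was run. Cells that met none (2303 and 2411) were unassigned. Counts were summed by library and class and divided by all UMIs of the same cells. A gene was counted with at least 50 UMIs over both libraries and called at 1.5-fold, and ratios carry exact 95% intervals of the split of counts. With 1 library per group no p-value was computed. The spread and correlations used cells thinned to 2000 UMIs. All 10 members were named throughout, with up to 4 genes of each pathway list by size of ratio and the 10 genes most like the members by mean correlation. The members, lists and limits were chosen with earlier results of these data known. The interval and spread code was tested on simulated data. Alternatives changed the limits on cells, the denominator, the scaling, the depth, the marker limits and the weight of classes. Python 3.11.15, NumPy 2.4.6, SciPy 1.17.1, pandas 2.3.3 and matplotlib 3.10.9 were used.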

Additional observations from a re-analysis of the deposited data

Results flagged for a closer look

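For 3 of the 10 genes the ratio of the library labelled SRSF2f/w over the library labelled SRSF2f/f had opposite signs in different cell classes, past 1.5-fold on both sides. Fos had a log2 ratio of 0.73 in SKM-like cells and -0.72 in Immu-like cells. Jun had 0.83 in SKM-like cells and -1.41 in Immu-like cells. Atf3 had 0.82 in Sch-like cells and -1.46 in Immu-like cells. The share of all genes that meet this rule is not given here, and in Immu-like cells 20.1% of genes passed 1.5-fold downwards. Fos in Immu-like cells and Atf3 in Sch-like cells each stayed past it in 5 of 8 alternatives. Mast-type cells were 30.4% and 53.8% of Immu-like cells in the libraries labelled SRSF2f/f and SRSF2f/w. The Mesen-like marker list stood at 283 and 64.7 CPM in Immu-like cells, in the same order, and its part was not tested. Within mast-type cells the ratio was -0.07 for Fos, -0.61 for Jun and 0.28 for Atf3. With 1 library for each genotype the difference was not tested.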

How the results depend on the processing

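Among the recomputed counts, 43 lay within 1.5 times the reported count and 3 did not. With equal weight for each class, 0 of the 10 genes passed 1.5-fold over all kept cells, against 2. With cells thinned to 2000 UMIs, 5 genes passed in SKM-like cells, against 3, and 4 had the same highest class in both libraries, against 7. The cause was not tested. The limit of 1.5 times is wide for small counts: a fall from 3 genes to 2 in SKM-like cells, with a mitochondrial limit of 5%, lay within it. Of the other recomputed values, mostly ratios of single genes, 101 were classed as moved and 151 as the same. Some of these shifts were small, such as Fos over all kept cells from 0.46 to 0.42 with a mitochondrial limit of 5%. The ratio in SKM-like cells ran from 0.61 to 1.09 for Jun and from 0.55 to 0.96 for Fos over 8 alternatives, and Jun in Mesen-like cells passed 1.5-fold in 6 of 8. In Immu-like cells Fos ran from -1.14 to -0.20. The splits by mast-cell and lymphatic UMIs and the levels without haemoglobin were chosen after seeing the data, and without mast-type cells Ier3 in Immu-like cells went from 0.26 to -0.86. The share of all genes past 1.5-fold was 23.0% at 50 UMIs over both libraries, 18.8% at 200 UMIs or more and 32.4% with 1 UMI in each library. The 115 SKM-like cells of the library labelled SRSF2f/w limit the rare genes most. No paired analysis was possible because each group has 1 library.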
